A study of Arabidopsis thaliana with 10 samples.

Results

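The comparison set vegetative shoot apices of BLS>>TCP4 plants, which carry the transcription factor gene TCP4 under the leaf-specific BLS promoter, against apices of unaltered Col plants. It takes 4 of the 10 arrays of the series, 2 of BLS>>TCP4 and 2 of Col, chosen by the genotype in the sample labels. The BLS>>TCP4 plants were in the Ler accession and were sampled at 14 DAS, the age code of the labels. The Col plants were in the Col accession, with no transgene named in the labels, and were sampled at the same age. Both groups were grown on soil in short days of 10 hours of light at 20 °C, and total RNA of the apices was measured on Affymetrix arrays, with 1 array for each sample. The other 6 arrays hold apices with reduced CIN-TCP activity, all in Col and grown in the same way. They are miR-3TCP (a designed microRNA, driven by 35S, that targets TCP5, TCP13 and TCP17, 14 DAS), miR319b (the natural microRNA driven by 35S, 17 DAS) and octa (18 DAS, taken as the combination of both microRNAs named in the design text). The transgene and the accession changed together, and no Ler array without the transgene was analysed here, so the transgene and the accession cannot be told apart in any result. The sources used here do not give how many transgenic lines or plants made a sample, and p-values reflect only how far these samples differ, possibly for technical reasons.

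TCP4 belongs to the CIN class of TCP transcription factors, which in Arabidopsis leaves end cell division and promote maturation, from the tip towards the base. Several of them, TCP4 among them, are restrained by the microRNA miR319. Loss of their activity gives large, crinkled leaves whose margins keep growing, and raised TCP4 activity in leaves gives small, early maturing blades. A shoot apex as collected holds the meristem and young leaves together, so that in bulk RNA fewer cells of a type and less RNA per cell cannot be told apart.

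The altered gene could not be checked. No CIN-TCP gene, out of 8, had a probe set with a single listed gene, so the level of TCP4 itself is not analysed here. Of the markers set for the tissues that an apex sample could hold, 3 were tested. RCA, the gene of Rubisco activase, marks leaf mesophyll and had signals of 6009.7 and 6275 in BLS>>TCP4 against 2901 and 2992 in Col. JAG, a zinc finger gene of growing lateral organs, had 15.8 and 22.4 in BLS>>TCP4 against 35.5 and 40 in Col, and PYK10, a root-enriched gene, had 992 and 1508 in BLS>>TCP4 against 1886 and 1917 in Col. No marker of flowers, seeds, senescing leaves or the shoot meristem was bright enough to test or had a listed probe set, and their part in the results was not tested.

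Each deposited value is the linear intensity of a probe set, called its signal here, and the median signal was 50 on all arrays after rounding. The spread of signals was not common to the arrays. Mean signals were 190.1 and 197 on the BLS>>TCP4 arrays and 151 and 155 on the Col arrays, and the 99th percentiles were 2684 and 2807 in BLS>>TCP4 against 1688 and 1755 in Col. Replicates were less alike in BLS>>TCP4, where their log2 difference had a standard deviation of 0.44, than in Col, where it was 0.27. Signals were therefore compared on log2(signal + 16), called the deposited scale, and again after quantile normalization, which gives every array the same distribution of signals. Low signals carry no detection call in the sources, and a log2 change on this scale understates the change of a dim probe set. The probes of the array follow the Col genome sequence, and no probe sequence was used here, so a change in transcript level and a change in probe match cannot be told apart.

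Of 13648 probe sets tested, 3564 were called at a limma adjusted p under 0.05 on the deposited scale, which is 26.1%. In BLS>>TCP4, 2375 were higher (17.4%) and 1189 were lower (8.71%). After quantile normalization the calls were 1232 higher (9.03%) and 1338 lower (9.80%), so the excess of rises was present on 1 scale and absent on the other. The counts were lower without either Col array and higher without either BLS>>TCP4 array. All groups share 1 estimate of the spread, and a group left with 1 array adds nothing to it. The BLS>>TCP4 replicates were less alike, so leaving out 1 of them can lower that estimate. The calls without 1 array, here and below, thus do not measure how far a result relies on either group.

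The difference between the scales was widest in the brightest probe sets. The probe sets were put in 5 equal groups by mean signal. In the brightest group the median log2 change was 0.31 on the deposited scale and -0.02 after quantile normalization, and the calls were 987 higher and 181 lower on the deposited scale, and 245 higher and 353 lower after quantile normalization. In the next brightest group the medians were 0.10 and 0.00, with 437 rises on the deposited scale and 240 after quantile normalization. The 3 dimmer groups had 306 to 326 rises on the deposited scale and 244 to 258 after quantile normalization, and in the dimmest the medians were 0.07 and 0.04. Over all tested probe sets the median was 0.10 on the deposited scale and 0.01 after quantile normalization. Below, a gene is said to have changed on both scales where it was called on each in the same direction and its BLS>>TCP4 and Col signals did not overlap, which held for 1232 probe sets higher (9.03%) and 1123 lower (8.23%). Signals that did not overlap were common by themselves, at 60.1% of the probe sets tested.

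**Figure D1:**
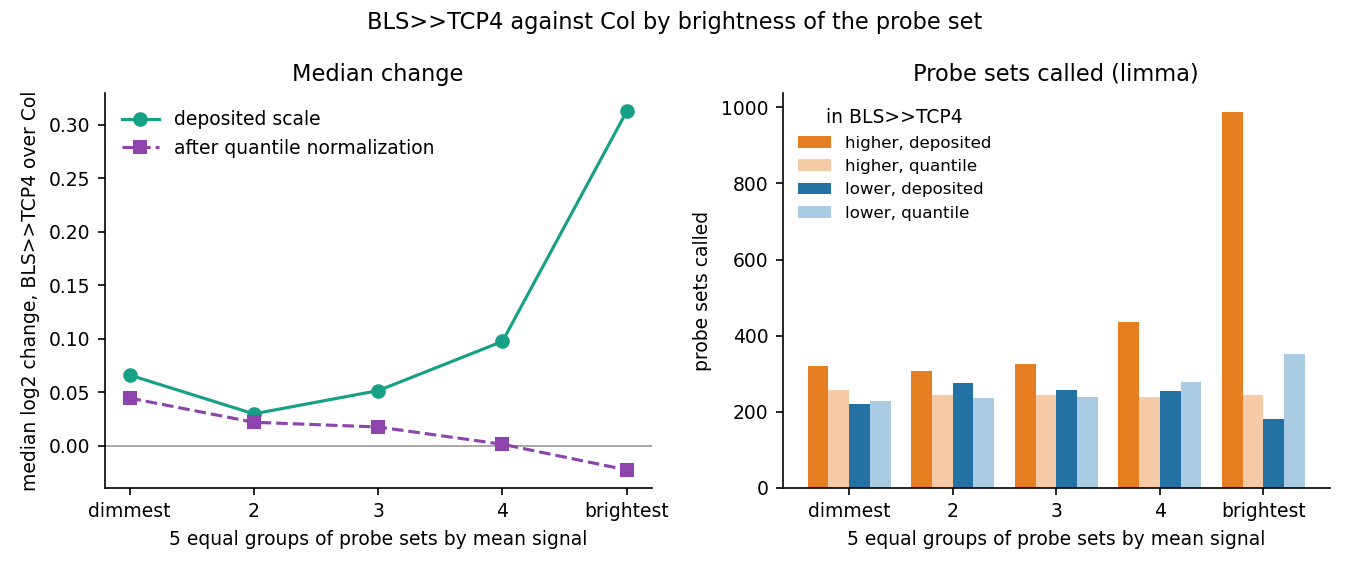
Median log2 change of BLS>>TCP4 over Col (left) and number of probe sets called (right) in 5 equal groups of probe sets from the dimmest to the brightest mean signal, on the deposited scale and after quantile normalization. The brightest group has a median of 0.31 and 987 rises on the deposited scale, against -0.02 and 245 rises after quantile normalization.

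A log2 change of at least 1 on both scales, called on both, was found for 243 probe sets higher in BLS>>TCP4 and 444 lower. At a change of at least 2 there were 25 higher and 80 lower. Probe sets were tested by their mean signal over all arrays, most of them of the Col accession. A gene bright only in BLS>>TCP4 was thus less likely to be tested than a gene dim only there. This filter favours large falls, so these counts cannot be set against each other. A gene dim in all other groups was tested only if bright in BLS>>TCP4, which favours rises among such genes, also in the lists below. Calls held in all 13 alternative settings in which the probe set was tested for 597 rises (4.37%) and 428 falls (3.14%). Unless a setting is named, each gene said below to have risen or fallen kept its call in all of these. A further setting, quantile normalization with only the 4 arrays fitted, was chosen after seeing the data and is not among the 13. It called 411 rises and 588 falls over all tested probe sets. Of the genes given values here, 10 that kept their calls in the 13 settings had limma adjusted p-values from 0.0513 to 0.111 in it. They were STOMAGEN, PSBY, AT1G11860, AT1G32470, LIL3:1, AT5G48490, AT2G27130, OPCL1, CSLA03 and DRT100.

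The largest rise was that of AOP3, a dioxygenase gene of aliphatic glucosinolate synthesis. Its signals were 1389 and 571 in BLS>>TCP4 against 6.87 and 9.74 in Col (log2 change 5.23 ± 0.35, limma adjusted p = 1.81e-05). Both BLS>>TCP4 arrays lay far above both Col arrays, and AOP3 is known as a gene that Ler expresses and Col does not. The plastid ribosomal protein gene rps4 came next, with 183 and 283 in BLS>>TCP4 against 5.77 and 3.07 in Col. AT5G15360, for which no role is given here, had 539.8 and 346 in BLS>>TCP4 against 22.2 and 21.7 in Col (3.56 ± 0.19 on the log2 scale), and AT2G21130, a cyclophilin gene, had 442 and 432 in BLS>>TCP4 against 43.9 and 61.3 in Col (2.73 ± 0.23). In each of these the replicates differed by less than the groups did. That the groups did not overlap was required by the choice of these genes.

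Other genes of known kinds stood among the 40 largest rises. They included GSTU27, a glutathione transferase gene (414 and 504 in BLS>>TCP4 against 127 and 129 in Col, log2 change 1.71), and AT1G18810, a relative of the phytochrome kinase substrate genes (170.1 and 159 in BLS>>TCP4 against 42.1 and 35.5 in Col, 1.72). Also there were the pentatricopeptide repeat genes AT4G18975 (1.93) and AT2G15690 (1.69), whose family acts mostly in organelle RNA processing, and AT5G12110, a translation elongation factor 1B gene (1.60). AT4G19240 and AT5G55570, without a role given here, had signals over 100 on both BLS>>TCP4 arrays and under 20 on the other 8 arrays of the series, and the same held for AOP3 and rps4.

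The largest fall was that of QQS, a gene without relatives in other species that is known to affect leaf starch. Its signals were 5.66 and 1.18 in BLS>>TCP4 against 805 and 677 in Col (log2 change -5.29 ± 0.19, limma adjusted p = 1.33e-06). QQS and AOP3 were the 2 tested genes, out of 8, in a list of genes known to differ in activity between Ler and Col. AT2G33850, which encodes an E6-like protein, had 10.1 and 3.38 in BLS>>TCP4 against 738 and 1008 in Col (-5.29 ± 0.24). ZW9, a TRAF-like gene, had 28.8 and 2.36 in BLS>>TCP4 against 891 and 801 in Col (-4.91 ± 0.32), and ECS1, a cell wall protein gene, had 71.3 and 40.4 in BLS>>TCP4 against 1286 and 1549 in Col (-4.35 ± 0.20). Both Col arrays were bright for each of these genes and both BLS>>TCP4 arrays were dim.

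Further falls of this size were those of AT1G35612 (1.14 and 2.42 in BLS>>TCP4 against 393 and 517 in Col), AT4G02850, a phenazine biosynthesis-like gene (5.98 and 17.2 in BLS>>TCP4 against 537 and 630.5 in Col), and AT1G62480, which encodes a vacuolar calcium-binding-related protein (52.1 and 41.3 in BLS>>TCP4 against 1138 and 739.9 in Col). PIP, a proline iminopeptidase gene, fell by 2.59 on the log2 scale (124 and 130.2 in BLS>>TCP4 against 812 and 881 in Col), NET4B, which encodes an actin-binding protein, fell by 2.95 (28.5 and 27.5 in BLS>>TCP4 against 325 and 323 in Col), and AT1G66100, a thionin gene of the defence peptides, fell by 2.71 (15.7 and 10.4 in BLS>>TCP4 against 164 and 183 in Col). AT1G30820, a CTP synthase gene (-2.17), and AT4G02450, a p23 co-chaperone gene (-2.18), were also among the 40 largest falls. GLC, a gene with 2 tested probe sets, fell on both of them (-2.62 on the brighter, with 15.7 and 29.6 in BLS>>TCP4 against 159 and 293 in Col). Of the named genes, 12 had signals under 20 on both BLS>>TCP4 arrays and over 100 on the other 8, AT1G35612, AT2G33850 and AT4G02850 among them.

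**Figure D2:**
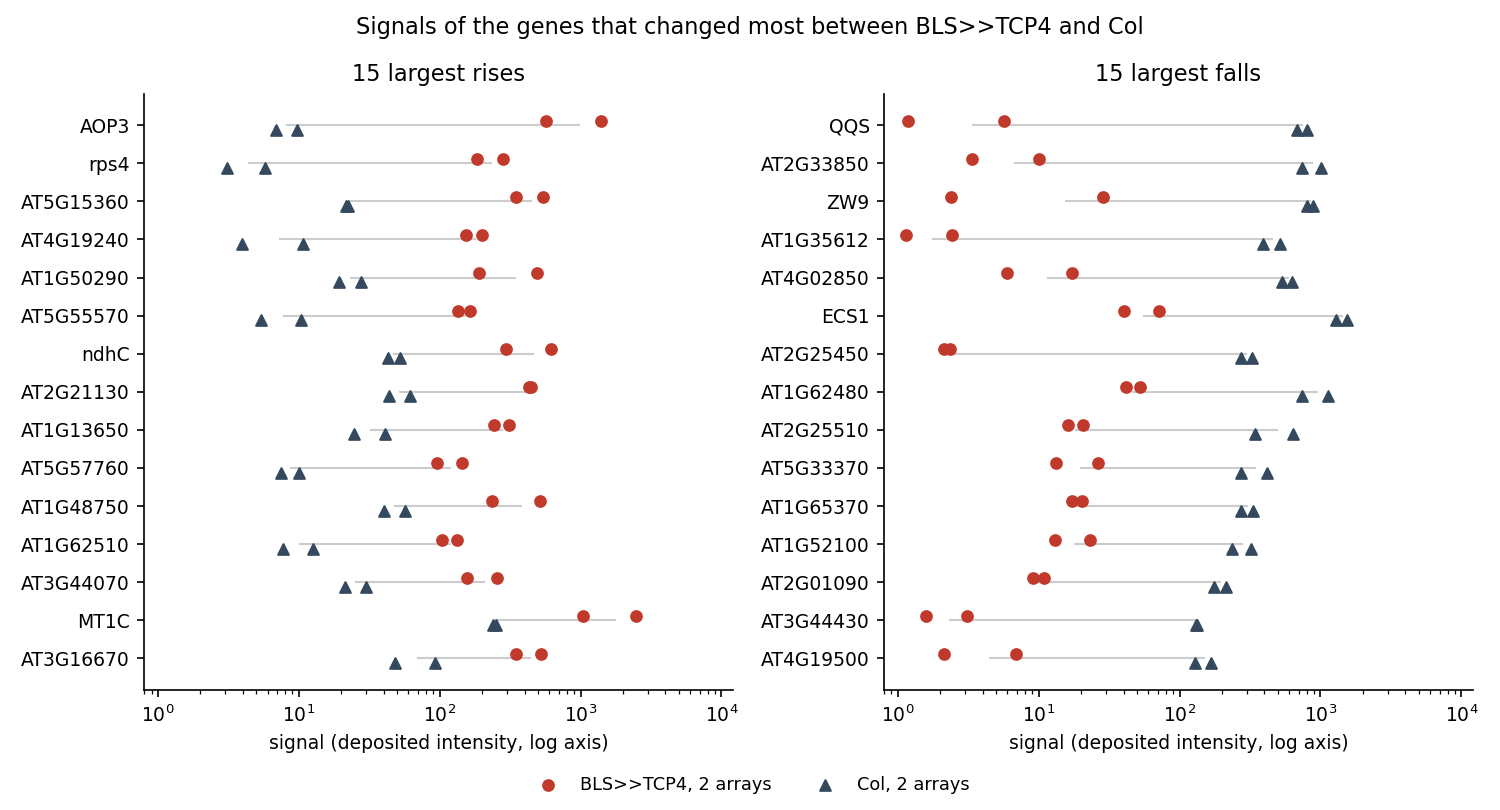
Signals on a log axis of the 15 genes with the largest rises (left) and the 15 with the largest falls (right) by the smaller change of the 2 scales. Red circles are the 2 BLS>>TCP4 arrays, dark triangles the 2 Col arrays, and grey lines join the group means. The groups do not overlap for any of the 30 genes, as their choice requires.

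Leaf and organ regulators, a list of transcription factor, signalling and polarity genes, had 41 probe sets tested, of which 7 were higher and 3 lower on the deposited scale. On both scales 5 were higher and 3 lower, shares near the 9.03% and 8.23% of all tested. The list's median log2 change was 0.01, against 0.10 over all tested. The number of rises was 3 without Col replicate 1 and 4 without Col replicate 2, and the falls numbered 0 without Col replicate 2 and 7 without BLS>>TCP4 replicate 2. SQN and STOMAGEN kept their calls in all 13 settings, and STOMAGEN had adjusted p = 0.0548 in the further one. SQN encodes cyclophilin 40, which aids microRNA function and the timing of juvenile leaves, and had 86.5 and 80.2 in BLS>>TCP4 against 18.5 and 25.1 in Col (log2 change 1.40 ± 0.15, limma adjusted p = 0.000226). On the miR-3TCP, miR319b and octa arrays SQN had 35.3 to 41.8, so the Col arrays were its lowest in the series. STOMAGEN encodes a peptide that mesophyll secretes and that promotes stomata, and had 684 and 390.5 in BLS>>TCP4 against 198 and 211 in Col (1.28 ± 0.22, adjusted p = 0.00284). Its BLS>>TCP4 replicates differed widely, and both were above both Col arrays.

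The other calls in the leaf list were small and were not kept in every setting. YAB5, a YABBY gene of the lower leaf side, had 84.1 and 68 in BLS>>TCP4 against 42.6 and 39.7 in Col and rose on both scales, with adjusted p = 0.0549 where only the 4 arrays were fitted. QKY, a membrane protein gene of organ shape, had 143 and 142 in BLS>>TCP4 against 75.8 and 87.8 in Col and adjusted p = 0.066 without Col replicate 1. NUB, a zinc finger gene that acts with JAG, had 58.3 and 52.4 in BLS>>TCP4 against 36 and 28.9 in Col, and JAG, given above, was lower. Without BLS>>TCP4 replicate 1, Col replicate 1 or Col replicate 2 the adjusted p was 0.0948, 0.0715 and 0.183 for NUB, and 0.072, 0.0654 and 0.108 for JAG. TCP15, a class I TCP gene, had 132 and 126 in BLS>>TCP4 against 192 and 214 in Col, and AGL24, a flowering-promoting MADS gene, had 32.9 and 24.8 in BLS>>TCP4 against 54.8 and 58.5 in Col. Without Col replicate 2 these had adjusted p = 0.0622 and 0.0546. SPCH, which starts the stomatal lineage, was not called (131 and 62 in BLS>>TCP4 against 162 and 171 in Col, adjusted p = 0.0729) and was called without BLS>>TCP4 replicate 1 (-1.23, adjusted p = 0.007).

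Of 17 genes taken as known or likely TCP4 targets from published work, only 3 were tested. Of these, 2 were higher on the deposited scale (17.4% of all tested), 1 of them on both scales (9.03% of all tested). Without Col replicate 1 the count was 0. RR16, a type-A cytokinin response regulator, had 126 and 212 in BLS>>TCP4 against 35 and 60.7 in Col (log2 change 1.52 ± 0.30, adjusted p = 0.00576), and adjusted p = 0.0552 without Col replicate 1. GIS, a zinc finger gene of trichome initiation, had 60.7 and 35.9 in BLS>>TCP4 against 20.3 and 23.4 in Col (0.74 ± 0.24, adjusted p = 0.0495) and was lost after quantile normalization (adjusted p = 0.0623). Its adjusted p was 0.221 without BLS>>TCP4 replicate 1, 0.191 without Col replicate 1 and 0.126 without Col replicate 2. HAT2, an auxin-induced homeodomain gene, had 98.9 and 148 in BLS>>TCP4 against 124 and 76.9 in Col, and its groups overlapped. Without Col replicate 2 the log2 change of HAT2 was -0.027.

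Photosynthesis genes were higher on the deposited scale, and most of the calls were lost after quantile normalization. Of 17 nuclear genes for photosystem, antenna and electron transport subunits that were tested, out of 62 listed, 12 were higher and 0 lower, against 17.4% and 8.71% of all tested, and 4 rose on both scales, against 9.03%. The list's median log2 change was 0.76 on the deposited scale and 0.26 after quantile normalization, against 0.10 and 0.01 over all tested. Of the 17, 11 were in the brightest group, where the scales differed. PSAN, a photosystem I subunit gene, had 4559 and 4225 in BLS>>TCP4 against 2042 and 2217 in Col, with a log2 change of 1.04 and, after quantile normalization, 0.29 (adjusted p = 0.0872). PSAE-1, another photosystem I gene, had 1.05 and 0.19 on the same scales. The antenna gene LHCB4.1 was called higher (5957 and 7747 in BLS>>TCP4 against 4094 and 3922 in Col, log2 change 0.76) and turned to -0.21 after quantile normalization, while LHCB4.2 was not called on the deposited scale (2757 and 3025 in BLS>>TCP4 against 2606 and 2910.3 in Col, 0.07) and was lower after quantile normalization (-0.69, adjusted p = 0.00536).

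The genes NdhL and NdhN of the NDH complex rose on both scales. This thylakoid complex carries cyclic electron flow around photosystem I. NdhL had 564 and 668 in BLS>>TCP4 against 231 and 285 in Col (log2 change 1.21 ± 0.20, after quantile normalization 0.97) and NdhN had 491 and 681 in BLS>>TCP4 against 194 and 257 in Col (1.31 ± 0.19, 1.09). PSBY, a photosystem II subunit gene, had 5853 and 5454 in BLS>>TCP4 against 2457 and 2515 in Col and rose by a log2 change of 1.18 ± 0.10, which was 0.34 after quantile normalization (adjusted p = 0.0404). For all of these both BLS>>TCP4 arrays were above both Col arrays, as a rise on both scales requires.

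Assembly and maintenance factors of the photosynthetic complexes had 27 probe sets tested, with 14 higher, 0 lower and 7 higher on both scales, against 17.4%, 8.71% and 9.03% of all tested. The median log2 change was 0.61 on the deposited scale and 0.45 after quantile normalization. Without Col replicate 1 only 4 were higher. HCF101, which supplies iron-sulfur clusters to photosystem I, had 1159.6 and 1382 in BLS>>TCP4 against 482 and 574 in Col (1.24 ± 0.15, 0.85 after quantile normalization). CcdA, a thylakoid protein gene of cytochrome assembly, had 641 and 827 in BLS>>TCP4 against 320.4 and 370.0 in Col (1.05 ± 0.17), and Cpn60beta4, a chaperonin subunit gene, had 254 and 348 in BLS>>TCP4 against 112 and 125 in Col (1.23 ± 0.19).

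Chlorophyll and tetrapyrrole genes were called in both directions. Of 14 tested, 7 were higher and 2 lower on the deposited scale, against 17.4% and 8.71% of all tested. On both scales 2 rose and 2 fell, near the 9.03% and 8.23% of all tested, with medians of 0.60 and 0.07. There were 4 rises without Col replicate 1, and 1 fall without either Col array or BLS>>TCP4 replicate 2. LIL3:1, a light-harvesting-like gene needed for chlorophyll synthesis, had 1414 and 1702 in BLS>>TCP4 against 698 and 857 in Col (log2 change 0.99 ± 0.15). HEMA2, a minor glutamyl-tRNA reductase gene at the start of the pathway, fell, with 25.8 and 21.7 in BLS>>TCP4 against 94.8 and 81.5 in Col (-1.39 ± 0.19, adjusted p = 0.000977). hemf2, a coproporphyrinogen oxidase gene, had 65.8 and 45.8 in BLS>>TCP4 against 126 and 144 in Col and was lower, with adjusted p of 0.0679 without BLS>>TCP4 replicate 2, 0.0593 without Col replicate 1 and 0.0869 without Col replicate 2. CHLM (0.82) and the geranylgeranyl reductase gene AT1G74470 (0.77) of the later steps were called on the deposited scale only, and had 0.16 and -0.06 after quantile normalization.

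For the Calvin cycle and photorespiration, 9 of 41 genes were tested, of which 7 were higher and 0 lower, against 17.4% and 8.71% of all tested, and 3 rose on both scales, against 9.03%. The medians were 0.81 and 0.20. The glycine cleavage genes AT1G11860 (T protein, 3433 and 3365 in BLS>>TCP4 against 1418 and 1629.8 in Col) and AT1G32470 (H protein, 2189 and 2699 in BLS>>TCP4 against 1112 and 1302 in Col) rose on both scales, with log2 changes of 1.15 and 1.00, and of 0.52 and 0.43 after quantile normalization. These act in mitochondria on the glycine made by photorespiration. The phosphoglycerate kinase gene AT1G56190 (798 and 622 in BLS>>TCP4 against 373 and 417 in Col) was also called on both scales, and had adjusted p = 0.0554 without Col replicate 1. RCA had a log2 change of 1.06 ± 0.08 and of 0.14 after quantile normalization (adjusted p = 0.207), and SBPASE, a Calvin cycle phosphatase gene, of 1.1 ± 0.12 and 0.38 (adjusted p = 0.0513).

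All calls among genes of the plastid genome itself were rises. Of 17 tested, 5 were higher and 0 lower, all 5 on both scales, against 9.03% and 8.23% of all tested on both, and 3 were higher without Col replicate 1. The list's median was 0.22 on the deposited scale and 0.20 after quantile normalization. Of the 5, rps4 and psbZ had at most 6.77 and 27.1 on the other arrays of the series. The dimmest mean signal tested was 27.2, so both passed the filter through their BLS>>TCP4 signals. The rises included ndhC of the NDH complex (294 and 617 in BLS>>TCP4 against 43.2 and 51.9 in Col, log2 change 2.81 ± 0.33) and rpoA, a subunit gene of the plastid RNA polymerase (258 and 207 in BLS>>TCP4 against 67.2 and 72.1 in Col, 1.53 ± 0.21). The BLS>>TCP4 replicates of ndhC were far apart, and both were above both Col signals. psbF and psbZ of photosystem II had 73 and 71.4 in BLS>>TCP4 against 28.1 and 39.7 in Col and 45.7 and 42.6 in BLS>>TCP4 against 22 and 26.6 in Col, and without Col replicate 1 their adjusted p-values were 0.0554 and 0.103.

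Cytosolic ribosomal protein genes gave opposite pictures on the 2 scales. Of 110 tested, 97 of them in the brightest group, 54 were higher and 1 lower on the deposited scale, against 17.4% and 8.71% of all tested and 987 rises among the 2730 probe sets of the brightest group. On both scales 3 were higher and 1 lower, against 9.03% and 8.23% of all tested. The median log2 change was 0.42 on the deposited scale and -0.08 after quantile normalization. The number of rises was 29 without Col replicate 1 and 41 without Col replicate 2. AT1G77940 had 3005 and 2909 in BLS>>TCP4 against 1489 and 1680.5 in Col (log2 change 0.90, after quantile normalization 0.27), and AT5G47930 had 1750.4 and 2182 in BLS>>TCP4 against 921 and 1140.4 in Col (0.92 and 0.41). The single fall, AT1G23410, had 44.1 and 34.3 in BLS>>TCP4 against 71 and 84.7 in Col and was called on both scales (-0.77 and -0.77) and had adjusted p = 0.063 without Col replicate 2.

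Listed lipid transfer and cutin genes were called higher more often than lower on both scales. These small secreted proteins and esterases serve the epidermis and its cuticle. Of 15 probe sets tested, out of 75 genes listed, 9 were higher and 1 lower, and 7 rose and 1 fell on both scales, against 9.03% and 8.23% of all tested. The median log2 change was 0.71, and 0.49 after quantile normalization. AT1G48750 had 516 and 235 in BLS>>TCP4 against 56.7 and 40.2 in Col (log2 change 2.51 ± 0.29, adjusted p = 0.000356), AT1G62510 had 133 and 103 in BLS>>TCP4 against 12.5 and 7.74 in Col (2.36 ± 0.37, adjusted p = 0.0019), and AT5G55450 had 137 and 129.5 in BLS>>TCP4 against 21.6 and 18.5 in Col (2.05 ± 0.19, adjusted p = 0.000121). Each had both BLS>>TCP4 arrays several times as bright as both Col arrays. On the other arrays of the series, Col included, AT1G62510 had 2.11 to 39.3 and AT5G55450 had 1.96 to 35.6. The dimmest mean signal tested was 27.2, so both genes passed the filter through their BLS>>TCP4 signals. Members as dim that did not rise were not tested, which favours rises in the list's counts. AT5G48490 (2369 and 3588 in BLS>>TCP4 against 1004 and 1261 in Col) and AT5G59330 (1722 and 1568 in BLS>>TCP4 against 577 and 696 in Col) were bright in both groups and rose by log2 changes of 1.36 and 1.35, and AT2G27130 rose by 0.67. The fall was that of AT5G33370, a cutin synthase-like esterase gene, with 13.2 and 26.5 in BLS>>TCP4 against 272 and 415 in Col (-3.32 ± 0.26, adjusted p = 4.47e-05). AT1G62500, a lipid transfer-like gene next to AT1G62510, was not in the list and also fell on both scales. It had 216 and 183 in BLS>>TCP4 against 962 and 727 in Col (-1.99 ± 0.25), so the list's counts do not cover all genes of this kind.

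Cell division and chromosome genes had calls in both directions. Of 40 tested, 3 were higher and 5 lower on the deposited scale, against 17.4% and 8.71% of all tested. On both scales 2 were higher and 5 lower, against 9.03% and 8.23%, and the medians were -0.03 and -0.06. The rises numbered 1 without Col replicate 1, 0 without Col replicate 2 and 6 without BLS>>TCP4 replicate 1, and the falls 8 without BLS>>TCP4 replicate 2. 3xHMG-box1, whose protein binds mitotic chromosomes, fell, with 24 and 17.5 in BLS>>TCP4 against 132 and 161 in Col (log2 change -2.14 ± 0.19, adjusted p = 7.64e-05). TOPII, the topoisomerase II gene that acts in dividing cells, fell, with 273 and 338 in BLS>>TCP4 against 540.4 and 651 in Col (-0.93 ± 0.17). FBL17, an F-box gene that removes inhibitors of the cell cycle, had 186 and 119.6 in BLS>>TCP4 against 286 and 288 in Col, and adjusted p = 0.0521 where only the 4 arrays were fitted.

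The tubulin genes TUB5 and TUB1 went opposite ways. TUB5 had 238 and 373 in BLS>>TCP4 against 528 and 559 in Col and TUB1 had 203 and 207 in BLS>>TCP4 against 107 and 57.8 in Col, with adjusted p = 0.073 and 0.0551 without Col replicate 2. Without Col replicate 1 the adjusted p of TUB5 was 0.0592. The mitotic kinases AUR1 (395 and 539 in BLS>>TCP4 against 345 and 415 in Col) and AUR2 (274 and 266 in BLS>>TCP4 against 245 and 249 in Col) were not called, although the signals of AUR2 did not overlap. AUR1 was called without BLS>>TCP4 replicate 1 (0.49, adjusted p = 0.0491).

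Auxin genes had 10 of 84 tested, with 1 higher and 3 lower on the deposited scale and 0 higher and 3 lower on both, where 9.03% and 8.23% of all tested were called. The median log2 change was -0.23 and, after quantile normalization, -0.29. Without Col replicate 1 there were 2 falls, and without any 1 of the other 3 arrays there was no rise. GH3.3 and GH3.17, which encode enzymes that join auxin to amino acids, fell. GH3.3 had 69.7 and 110.1 in BLS>>TCP4 against 244 and 212 in Col (log2 change -1.23 ± 0.21) and GH3.17 had 218 and 243 in BLS>>TCP4 against 550.2 and 438 in Col (-1.04 ± 0.19, adjusted p = 0.00396). WES1, a gene of the same enzyme family, was not called, with 479 and 641 in BLS>>TCP4 against 926 and 645 in Col. IAA30, an Aux/IAA gene, had 16.7 and 12.5 in BLS>>TCP4 against 40.2 and 26.5 in Col and was lower, with adjusted p = 0.0899 without BLS>>TCP4 replicate 2 and 0.192 without Col replicate 1.

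Other hormone genes had 22 probe sets tested, with 2 higher and 5 lower, and 1 higher and 5 lower on both scales, where 9.03% and 8.23% of all tested were called. The rises were 0 without Col replicate 1, and the falls were 1 without Col replicate 2, 2 without Col replicate 1, 3 without BLS>>TCP4 replicate 1 and 7 without BLS>>TCP4 replicate 2. OPCL1, a jasmonate synthesis gene, kept its call in all 13 settings and had adjusted p = 0.0558 in the further one, with 57.7 and 23.5 in BLS>>TCP4 against 115 and 107 in Col (-1.23 ± 0.25). ARR15, a type-A response regulator like RR16, was lower, with 43.7 and 44.2 in BLS>>TCP4 against 89.8 and 94 in Col, and its adjusted p was 0.0558 without Col replicate 1 and 0.0625 without Col replicate 2. Genes of gibberellin receptors, GID1A (67.3 and 73.1 in BLS>>TCP4 against 104 and 118 in Col) and GID1B (23.4 and 33.1 in BLS>>TCP4 against 59.3 and 61.2 in Col), and the brassinosteroid-related BIM1 (98.8 and 103 in BLS>>TCP4 against 154 and 163 in Col) were lower on both scales, with adjusted p of 0.168, 0.0864 and 0.0686 without Col replicate 2. The receptor genes also lost their calls without BLS>>TCP4 replicate 1 (0.0862 and 0.0766) and without Col replicate 1 (0.0821 and 0.0811). RR16 and ARR15 thus lay on opposite sides of Col.

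Glucosinolate genes showed some of the largest changes of the comparison. Glucosinolates are sulfur-containing defence compounds of the cabbage family, whose side chains differ between accessions. Of 8 probe sets tested, out of 43 genes, 3 were higher and 1 lower, all on both scales (9.03% and 8.23% of all tested) and in all 13 settings, and 5 were higher without BLS>>TCP4 replicate 2. Beside AOP3, its neighbour AOP1 rose, with 211 and 289.7 in BLS>>TCP4 against 94 and 93.3 in Col (log2 change 1.27 ± 0.19), and so did GTR2, a glucosinolate transporter gene, with 328 and 214 in BLS>>TCP4 against 103 and 92 in Col (1.31 ± 0.19). AT2G25450, a dioxygenase gene that hydroxylates side chains, had 2.34 and 2.14 in BLS>>TCP4 against 271 and 324 in Col (-4.10 ± 0.31, adjusted p = 3.65e-05). Its signals lay at the bottom of the array on both BLS>>TCP4 arrays and from 202 to 759 on those of the Col accession.

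Genes of ER bodies were lower as a rule. ER bodies are endoplasmic reticulum bodies of the cabbage family that store a beta-glucosidase for defence. Of 6 tested, out of 19 listed, 5 were lower and 0 higher, all 5 on both scales, against 8.23% of all tested, and 3 without Col replicate 1. The median log2 change was -1.13, and -1.21 after quantile normalization. NAI2, a protein needed to form the bodies, had 109 and 131 in BLS>>TCP4 against 597 and 563 in Col (log2 change -2.14 ± 0.16, adjusted p = 3.44e-05). The jacalin-related lectin genes JAL34 (235 and 389.8 in BLS>>TCP4 against 792 and 1008 in Col, -1.51 ± 0.26) and JAL33 (187 and 261 in BLS>>TCP4 against 469.8 and 555 in Col, -1.15 ± 0.18), whose products bind the glucosidase, fell with it. JAL22 had 91.9 and 175 in BLS>>TCP4 against 295 and 290.3 in Col and adjusted p = 0.0515 without Col replicate 1. PYK10, the glucosidase gene, had a log2 change of -0.63 ± 0.17 (adjusted p = 0.0202) and of -1.15 after quantile normalization, with adjusted p = 0.0852 without Col replicate 1 and 0.0886 without Col replicate 2 on the deposited scale. NAI1, which encodes the regulator of the group, was not called (32.5 and 36.4 in BLS>>TCP4 against 64 and 58.4 in Col, adjusted p = 0.0736).

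Disease resistance genes of the NBS-LRR kind, which encode intracellular immune receptors, were called mostly as falls. Of 23 tested, out of 157 listed, 2 were higher and 8 lower on the deposited scale, against 17.4% and 8.71% of all tested. On both scales 0 were higher and 8 lower, against 9.03% and 8.23%. The list's median log2 change was -0.15, and -0.16 after quantile normalization. The rises were 0 without either Col array and 1 without either BLS>>TCP4 array. AT4G19500 had 2.12 and 6.93 in BLS>>TCP4 against 129 and 167 in Col (log2 change -3.0 ± 0.17, adjusted p = 8.27e-06), and AT4G19510, the next gene along the chromosome, had 9.36 and 4.17 in BLS>>TCP4 against 34 and 43.1 in Col (-1.27 ± 0.16). AT3G44630 had 27.2 and 32.9 in BLS>>TCP4 against 243 and 131 in Col (-2.09 ± 0.24). CSA1 (15.3 and 4.62 in BLS>>TCP4 against 65.5 and 76.8 in Col) and AT1G63880 (18.1 and 15.3 in BLS>>TCP4 against 96.4 and 92.7 in Col) fell by 1.77 and 1.76 on the log2 scale, and AT5G40910 and AT2G14080 by 1.19 and 1.15. All of these encode receptors of the TIR kind. Genes of this family resemble one another, and the array may not tell close copies apart. Among 5 tested TRAF-like genes, ZW9 and AT1G65370 (17.3 and 20.4 in BLS>>TCP4 against 334 and 273 in Col, -3.19 ± 0.21) fell and the other members were not called.

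**Figure D3:**
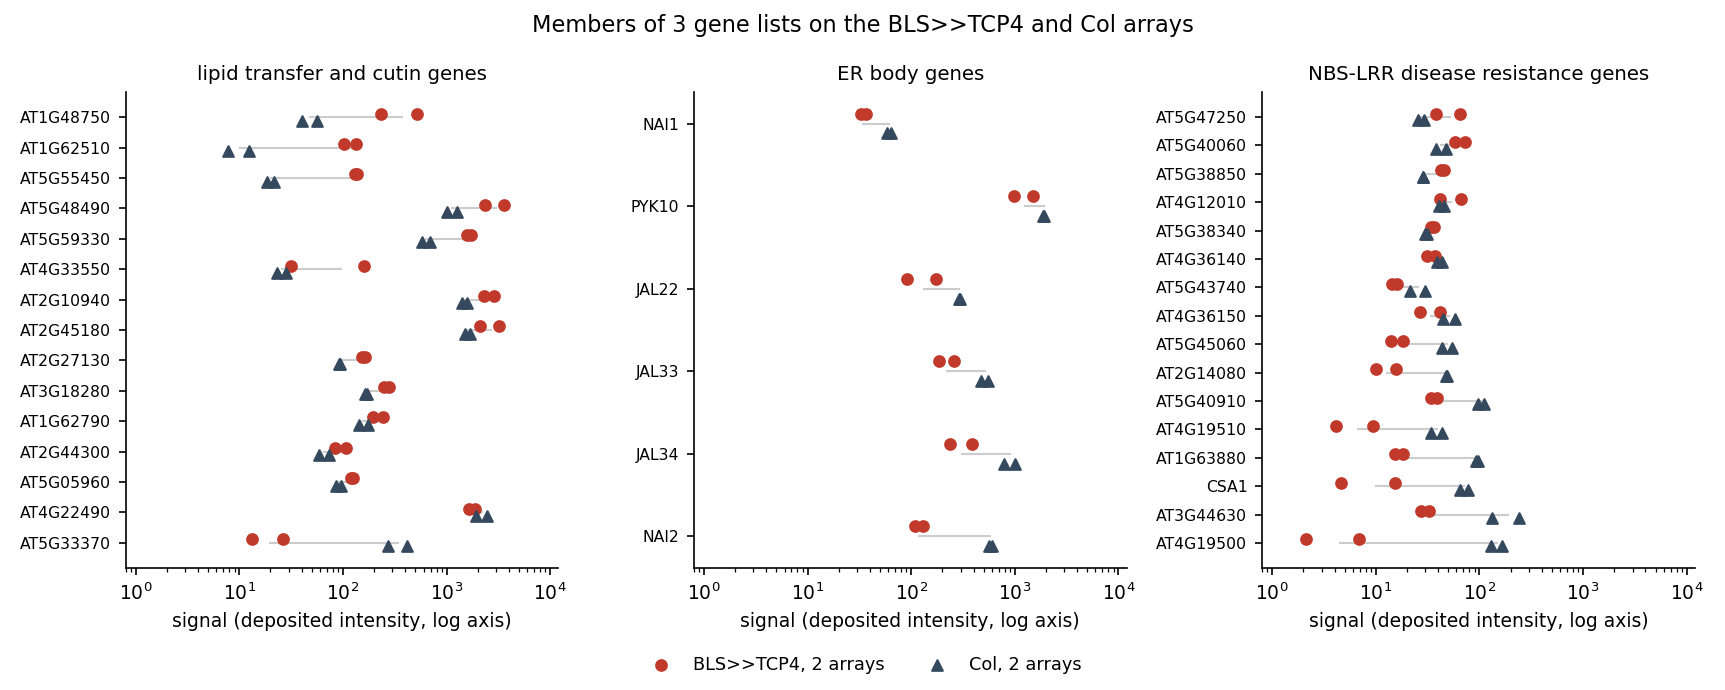
Signals on a log axis of the tested members of the lipid transfer and cutin list (left), the ER body list (middle) and the 16 members of the NBS-LRR list with the smallest adjusted p (right). Red circles are the 2 BLS>>TCP4 arrays, dark triangles the 2 Col arrays, and grey lines join the group means. Most lipid transfer genes are to the right of Col in BLS>>TCP4, and all 6 ER body genes are to the left.

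Flavonoid and anthocyanin genes had 7 probe sets tested, with 3 higher and 0 lower, against 17.4% and 8.71% of all tested, and 2 higher on both scales, against 9.03%. Without Col replicate 1 the rises numbered 0, without Col replicate 2 and without BLS>>TCP4 replicate 1 they numbered 1, and without BLS>>TCP4 replicate 2 they numbered 4. AT4G14090, an anthocyanin glucosyltransferase gene, had 946 and 219.9 in BLS>>TCP4 against 48.7 and 135 in Col (log2 change 2.27 ± 0.66, adjusted p = 0.0308), with adjusted p = 0.156 without BLS>>TCP4 replicate 1 and 0.194 without Col replicate 1. DFR, which makes the precursors of anthocyanins, had 1296 and 229 in BLS>>TCP4 against 185 and 458 in Col and was called only without BLS>>TCP4 replicate 2 (2.09, adjusted p = 0.0295). UF3GT, a further anthocyanin enzyme gene, had 322 and 92.6 in BLS>>TCP4 against 41.7 and 164 in Col. In all of these BLS>>TCP4 replicate 1 was the brighter of its pair and Col replicate 2 the brighter of its pair. The flavonol glycosyltransferase gene UGT78D1 had 328 and 328 in BLS>>TCP4 against 205 and 207 in Col and was higher on both scales, with adjusted p = 0.0739 without Col replicate 1 and 0.0625 without Col replicate 2.

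Sugar genes were called on both scales at shares near those of all tested. Of 17 starch, sugar and sugar transport genes tested, 5 were higher and 2 lower, and 2 were higher and 2 lower on both scales, against 9.03% and 8.23% of all tested. Without Col replicate 1 there was 1 rise, without Col replicate 2 there were 2, and without either BLS>>TCP4 array there were 3. SWEET1, a glucose transporter gene of the plasma membrane, had 592 and 617 in BLS>>TCP4 against 236 and 239.5 in Col (log2 change 1.29 ± 0.14, adjusted p = 0.000247), and SWEET16, a vacuolar sugar transporter gene, had 30 and 47.8 in BLS>>TCP4 against 107 and 96.5 in Col (-1.12 ± 0.17, adjusted p = 0.00135). The other fall was that of QQS.

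Wall genes had 35 probe sets tested, with 6 higher and 5 lower, and 3 higher and 5 lower on both scales, near the 9.03% and 8.23% of all tested. The calls were 4 higher and 3 lower without Col replicate 1, and 2 higher and 0 lower without Col replicate 2. XTH16, a xyloglucan-modifying enzyme gene, had 534 and 685 in BLS>>TCP4 against 265 and 226 in Col (log2 change 1.25 ± 0.21), and CSLA03, a mannan synthase gene, had 203 and 219.6 in BLS>>TCP4 against 112 and 121 in Col (0.78 ± 0.13). Of 14 iron and metal genes, 5 were higher and 1 lower, against 17.4% and 8.71% of all tested, and 3 were higher and 1 lower on both scales. Here the rises were 1 without Col replicate 2 and 2 without Col replicate 1 or BLS>>TCP4 replicate 2. MT1C, a metallothionein gene, had 2460.1 and 1048 in BLS>>TCP4 against 252 and 238 in Col (2.64 ± 0.33), and bHLH121, a regulator of iron uptake, had 105 and 119 in BLS>>TCP4 against 283 and 347 in Col (-1.37 ± 0.23). The cold and dehydration list had 11 tested, with 2 higher and 2 lower, all on both scales, against 9.03% and 8.23% of all tested, and 1 of each without Col replicate 1. DI21, a drought-induced gene, had 82.5 and 129 in BLS>>TCP4 against 408 and 337 in Col (-1.69 ± 0.22), and DRT100, a gene induced by DNA damage, had 507 and 715 in BLS>>TCP4 against 318 and 281 in Col (0.97 ± 0.18).

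Of 3 enzyme families added for their size, serine carboxypeptidase-like genes had 14 tested with 4 higher and 1 lower, 1 higher and 0 lower without Col replicate 1, 2 higher and 2 lower without Col replicate 2, and 2 lower without either BLS>>TCP4 array. The wall-acetylating trichome birefringence-like genes had 13 tested with 2 higher and 0 lower. These became 0 rises without either Col array, and 1 rise and 4 falls without BLS>>TCP4 replicate 2. Among 20 UDP-glycosyltransferase genes 5 were higher and 1 lower, which became 1 rise without BLS>>TCP4 replicate 1 or Col replicate 2, 2 rises without Col replicate 1, 5 falls without BLS>>TCP4 replicate 2 and 0 falls without either Col array. Calls over all tested were 17.4% higher and 8.71% lower. The lists of these 3 families held only tested genes and need not cover the families.

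**Figure D4:**
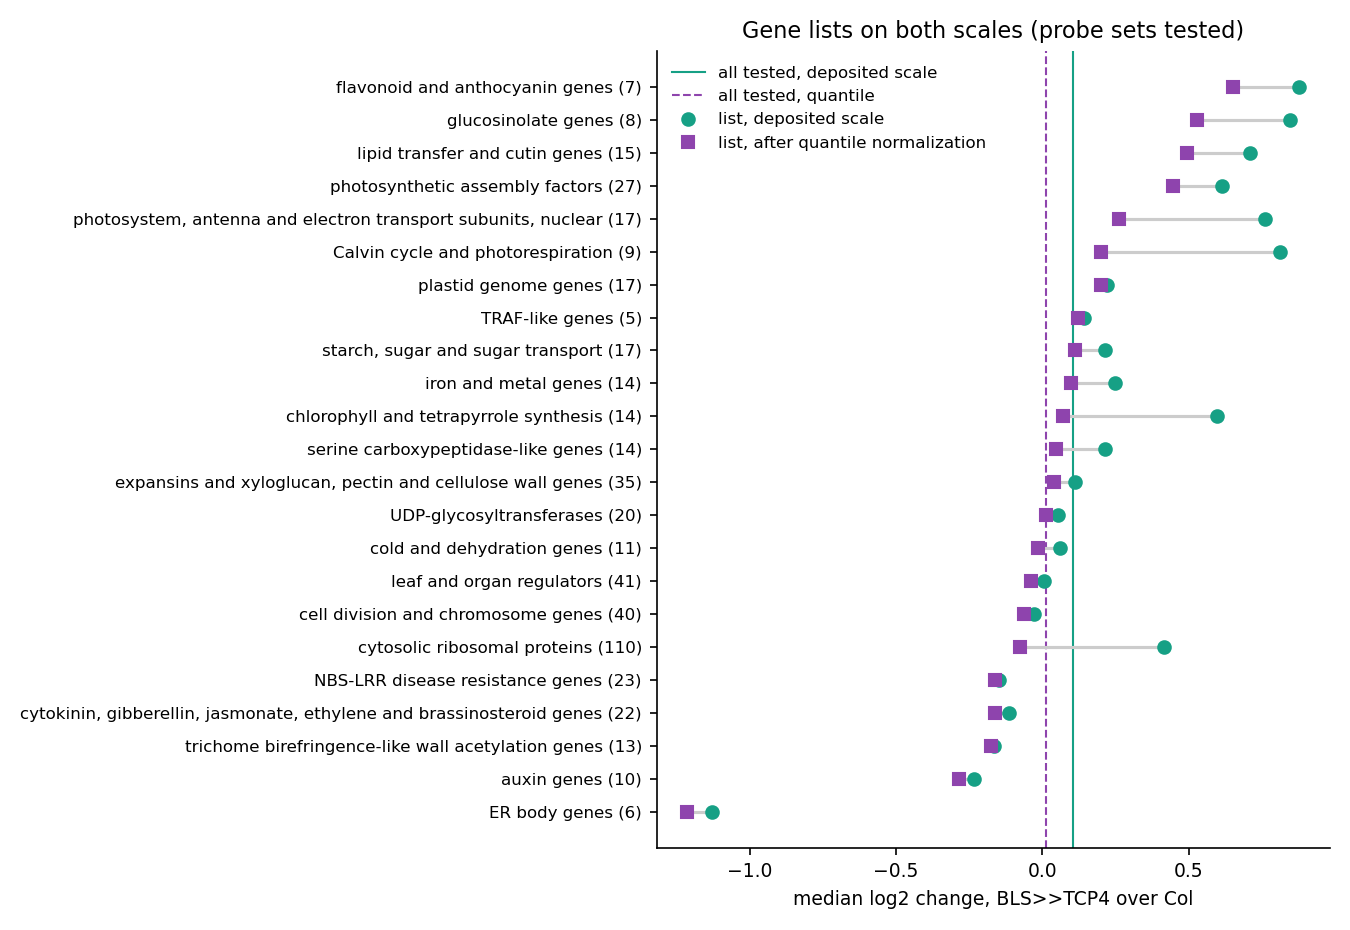
Median log2 change of BLS>>TCP4 over Col for gene lists with at least 5 probe sets tested, on the deposited scale (circles) and after quantile normalization (squares), with the number of probe sets in brackets. Vertical lines mark the median of all tested probe sets, 0.10 (solid) and 0.01 (dashed). The medians of the Calvin cycle, chlorophyll, photosystem subunit and ribosomal protein lists shift by more than those of the other lists between the scales, and the ER body list is lowest on both.

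Some genes that rose in BLS>>TCP4 had lower signals in miR319b and octa than in Col, and in miR-3TCP only some of these did. The genes in the plot of the 5 groups were chosen after their values in all groups had been seen, all groups are set against the same Col arrays, and the miR319b and octa arrays are from apices of 17 and 18 DAS, so the values are given as a description. AT3G05730, a defensin-like gene, had 2702 and 3398 in BLS>>TCP4, 305 and 221 in miR-3TCP, 47.1 and 34.3 in miR319b, 21 and 22.8 in octa and 682 and 608 in Col. For STOMAGEN the signals were 684 and 390.5 in BLS>>TCP4, 192 and 199 in miR-3TCP, 127 and 118 in miR319b, 81.7 and 95.5 in octa and 198 and 211 in Col. The chitinase family gene AT2G43590 had 157 and 179 in BLS>>TCP4, 3.18 and 5.61 in miR-3TCP, 1.21 and 0.662 in miR319b, 0.673 and 1.11 in octa and 37.5 and 25.9 in Col. In all of these Col lay between BLS>>TCP4 above and the miR319b and octa arrays below.

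AT3G14760, which has no role given here, had 129 and 154 in BLS>>TCP4, 21.5 and 29.3 in miR-3TCP, 4.76 and 4.11 in miR319b, 0.852 and 4 in octa and 25.6 and 30.8 in Col. The lipid transfer gene AT5G55450 had 35.6 and 19.9 in miR-3TCP, 12 and 15.4 in miR319b and 5.16 and 1.96 in octa, beside the values given above for BLS>>TCP4 and Col. AT1G13650 had 242 and 308 in BLS>>TCP4, 29.4 and 67.5 in miR-3TCP, 5.74 and 5.77 in miR319b, 4.76 and 4.8 in octa and 24.7 and 40.7 in Col. RR16 was brighter in BLS>>TCP4 than in any other group, with 37.4 and 78.6 in miR-3TCP, 15.3 and 15 in miR319b and 14.7 and 15.3 in octa.

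Other genes separated Col from the rest. QQS had 1.42 and 7.77 in miR-3TCP, 20.9 and 21.1 in miR319b and 11.6 and 12.5 in octa, so that it was high only on the Col arrays among the 5 groups. MT1C had 327 and 482 in miR-3TCP, 927 and 1164 in miR319b and 574 and 585 in octa, all above its Col signals. AT3G55920, a cyclophilin gene, had 127 and 156 in BLS>>TCP4, 109 and 110.4 in miR-3TCP, 114 and 132 in miR319b, 119 and 77.8 in octa and 26 and 30.5 in Col. For these genes a signal unlike that of Col was not particular to the Ler arrays. Of the probe sets called on both scales, 1140 of 1232 rises (92.5%) and 923 of 1123 falls (82.2%) had both BLS>>TCP4 signals beyond all 8 arrays of the Col accession. Of all tested, 25.0% had both BLS>>TCP4 signals above those 8 arrays and 11.7% had both below.

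**Figure D5:**
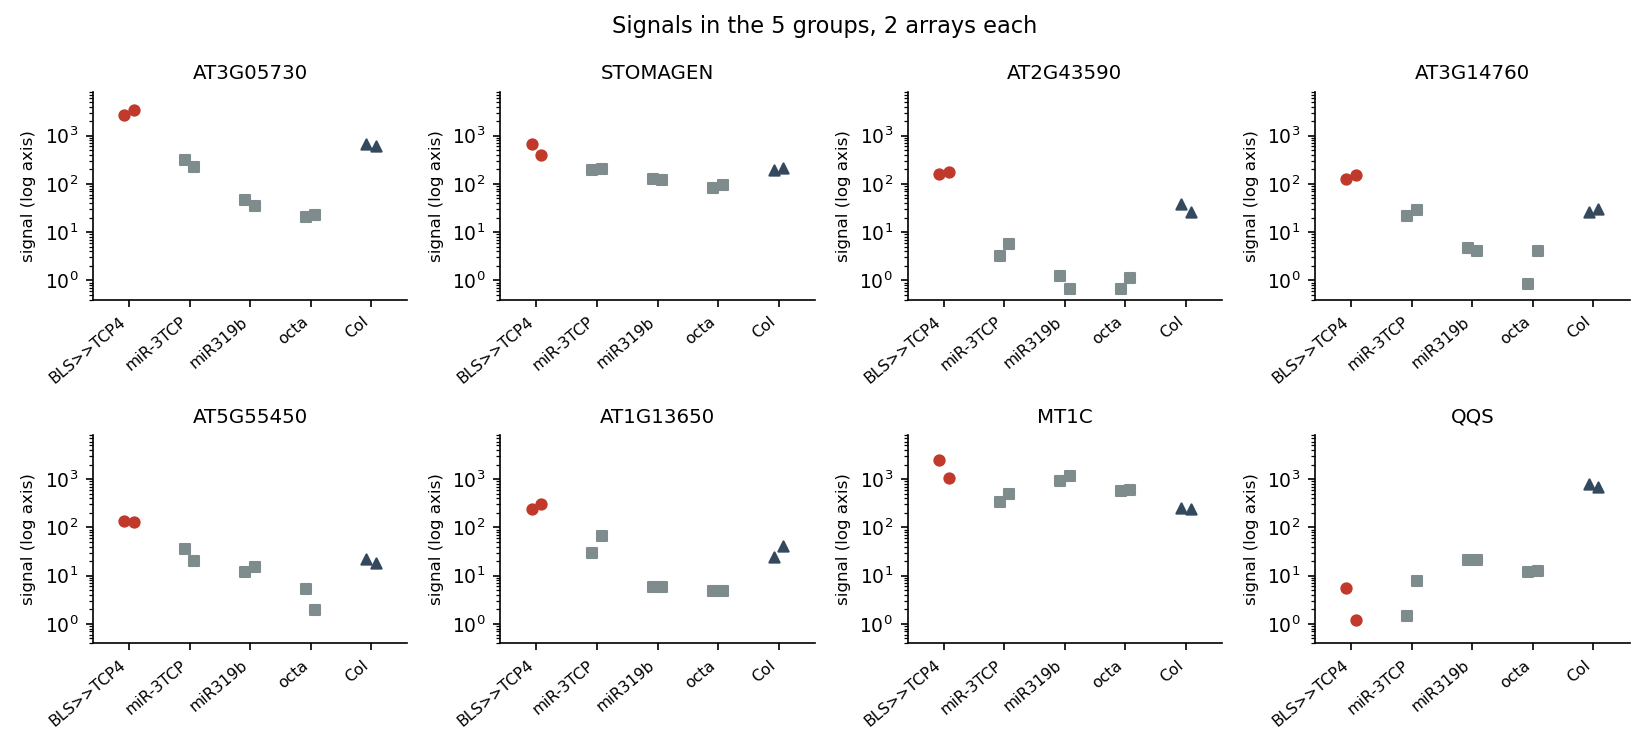
Signals on a common log axis in the 5 groups, 2 arrays each, for 8 genes. Red circles are BLS>>TCP4, grey squares miR-3TCP, miR319b and octa, and dark triangles Col. The first 6 genes are highest in BLS>>TCP4 and lowest in octa or miR319b, MT1C is lowest in Col, and QQS is high only in Col.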

How the data were processed

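The deposited values are intensities per probe set on a linear scale, which per the submitters' processing notes the authors made with MAS5; the sources used here give neither its version nor its settings. Arrays were assigned to groups by the labels. AFFX controls (64) were removed from 22810 probe sets, and probe sets at or above the 40th percentile of mean signal (13648) were tested as log2(value + 16). All 10 arrays, in 5 groups, entered 1 limma model (limma 3.58.1 in R 4.3.3, lmFit and eBayes with trend, 5 residual degrees of freedom), with calls at an adjusted p under 0.05 (Benjamini-Hochberg). Errors of log2 changes are standard errors. On simulated data it recovered 83% of log2 changes of 1 and 99% of 2. There, 200 of 13648 probe sets were changed and every array had the same spread for a probe set. The real groups differ in spread and many more probe sets were called, so these rates need not hold for this comparison.

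Alternatives were quantile normalization, median centring, pseudocounts 1 and 64, other filters, only the 4 arrays fitted, a spread per group, a replicate block and leaving out each array.

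Of 22746 probe sets, 13513 had 1 gene in the platform annotation (13436 matched to RefSeq TAIR10.1), 503 several and 8730 none listed; only the first kind was named. Genes were named if among the 40 largest rises or falls on both scales, as called or most significant list members, or as markers. Members, lists and the comparison were chosen with earlier results of these data known, and lists were set by locus or symbol. Where no number listed is given beside the number tested, a list may hold only tested genes and need not cover its kind. The number of arrays limits precision.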

Additional observations from a re-analysis of the deposited data

How the results depend on the processing

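Against 2375 rises and 1189 falls, the fits that moved a count by over 1.5 times were quantile normalization (1232 rises), only the 4 arrays fitted (1156 rises and 613 falls), a spread for each group (1390 rises and 691 falls), and quantile normalization with only the 4 arrays fitted (411 rises and 588 falls), which was chosen after seeing the data. Leaving out 1 array gave 1115 to 2489 rises and 557 to 1429 falls. The lowest counts came without Col replicate 1 and the next without Col replicate 2. Because the groups share 1 estimate of the spread, this does not measure reliance on the Col arrays. Deviations of same-numbered arrays in 10 pairs of groups correlated from -0.40 (octa with miR319b) to 0.45 (miR-3TCP with Col), and at 0.10 for BLS>>TCP4 with Col. The labels name no batch, and whether same-numbered arrays shared one was not tested. With the replicate block there were 1600 rises and 837 falls. The other alternatives (median centring, pseudocounts 1 and 64, a filter at the 60th percentile and no filter) gave 1937 to 2577 rises and 824 to 1301 falls.

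Of the 127 genes with values in the text or below, 87 kept their direction and their side of the threshold in all 13 alternatives, and 77 of these also in the further fit with quantile normalization and only the 4 arrays. LHCB4.1 turned to -0.21 and AT1G74470 to -0.064 after quantile normalization, both also with only the 4 arrays fitted. LHCB4.2 turned to -0.69 after quantile normalization, to -0.038 with the replicate block, and ranged from -0.011 to 0.15 with 1 array left out. With 1 array left out, DFR ranged from -0.33 (without BLS>>TCP4 replicate 1) to 2.09 and HAT2 from -0.027 (without Col replicate 2) to 0.56. For these genes the cause was not tested. No detection call or background level was given, so the depth of dim signals is unknown.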

Other observations

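Some calls fell on neighbouring genes. In the gene order of the RefSeq table, 2187 adjacent pairs had both genes tested. In 20 pairs (0.914%) both genes were lower in BLS>>TCP4 on both scales, in 27 (1.23%) both were higher, and in 24 (1.1%) they went opposite ways. Of the 7223 genes in that order, 7.93% were lower and 9.95% higher. AT5G45500 (1.85 and 6.25 in BLS>>TCP4 against 135 and 123 in Col) and AT5G45510 (21.1 and 30.1 in BLS>>TCP4 against 206 and 199 in Col) were both far dimmer in BLS>>TCP4. JAL33 and JAL34 were both lower by less (log2 changes of -1.15 and -1.51). The immune receptor genes AT4G19500 and AT4G19510 were both lower as well (-3.0 and -1.27).

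Opposite neighbours also occurred, chosen here after their values were seen. AT1G62500, a proline-rich lipid transfer-like gene, had 216 and 183 in BLS>>TCP4 against 962 and 727 in Col, next to AT1G62510, which was higher in BLS>>TCP4. MYBC1, a MYB-like gene, had 2.23 and 6.93 in BLS>>TCP4 against 70.6 and 97 in Col, next to AT2G40960 with 191 and 419 in BLS>>TCP4 against 62.3 and 86.9 in Col.

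Of 82 genes with more than 1 tested probe set, 46 had the same sign on all of them, 38 had at least 1 probe set called, 9 had all called in 1 direction, and 0 were called in both directions by limma. Among the largest falls outside the lists, AT1G52100, a jacalin lectin gene, had 23.2 and 13 in BLS>>TCP4 against 319 and 234 in Col, and AT2G01090, a gene for a subunit of mitochondrial complex III, had 10.8 and 9.12 in BLS>>TCP4 against 175 and 215 in Col.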
